A study of Mus with 9 samples.

Results

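The transcription factor p53, encoded in the mouse by Trp53, and its known target genes were examined as a set of 32 genes, taken by gene symbol from a count table of 54532 genes. The set left out inhibitors of cyclin-dependent kinases and the BCL2 family. Its members were chosen by name, with earlier results of these data known. Of the 32, 31 passed the filter on low counts, as did 15660 genes in all. RNA was sequenced from mouse bone marrow cells in 9 libraries, 3 in each of 3 groups. The CCND2mut group carried a retrovirus for cyclin D2 with alanine in place of threonine 280, the CCND2wt group one for unchanged cyclin D2, and the Vec group the empty MSCV-IRES-EGFP vector. In all 3 groups the transduced cells were fetal liver cells of embryonic day 12.5 from a conditional AML1-ETO knock-in mouse, in which the fusion gene carries an mCherry tag, and cells positive for mCherry and GFP were given, with supportive cells, to irradiated C57BL/6 mice. The controls thus carry AML1-ETO as well, and no group is without it. The promoter that drives the Cre, the age of the mice and any sorting of the marrow before RNA extraction are not stated in the labels, so that cells of the host or of the support graft may be part of each library. The labels do not say that libraries of a group come from separate animals, and the p-values reflect the spread between libraries, part or all of which could be technical.

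In an unstressed cell p53 protein is kept scarce by the ubiquitin ligase MDM2 and its partner MDM4. DNA damage or an active oncogene frees p53, which then switches on genes that stop the cell cycle, start apoptosis, repair DNA and limit growth, as well as Mdm2 itself, which closes a feedback loop. In the blood system p53 limits stem cells and restrains leukaemia. Control is largely at the protein level, and many of its targets also answer to other factors, so that RNA levels of Trp53 and of its targets do not by themselves measure p53 activity.

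Total counts were 15043755 to 17593634 per library, and 1 count corresponded to 0.0529 to 0.0679 CPM (counts scaled by library size), the unit of all levels below unless TPM (which also divides by gene length) is named. Counts at Ccnd2 went against the labels, at 12.6, 58.2 and 51.1 CPM in CCND2mut, 7.30, 9.29 and 11.1 CPM in CCND2wt and 76.2, 79.05 and 86.2 CPM in Vec, so that the groups below are those of the labels and not of a measured cyclin D2 level. Whether the retrovirus carried mouse or human cyclin D2, and whether its reads were counted at Ccnd2, is not given in the sources used here. All 6 markers of blood cells, Ptprc among them, were detected in every library. The CCND2wt libraries lay close together, with a chi-square per gene of 6.998 to 17.7 between pairs of them, against 72.9 to 148 within CCND2mut and 53.3 to 117 within Vec, and the counts of calls that involve CCND2wt are also given with the 3 summed into 1 sample. Haemoglobin genes took 1.51% of the counts in Vec 1 and at most 0.356% in any other library. The groups also differed in sex-linked RNA, with Xist at 4.31, 11.8 and 4.91 CPM in CCND2mut, 2276, 2111 and 2305 CPM in CCND2wt and 169.5, 10.7 and 879 CPM in Vec. The Y-linked gene Ddx3y stood at 27.4, 0 and 0 CPM in CCND2mut, 0.635, 0.623 and 0.605 CPM in CCND2wt and 134, 318 and 64.5 CPM in Vec. All Vec libraries lay above both other groups in Ddx3y, and all CCND2wt libraries above both in Xist. CCND2mut 2 and 3 were low in both genes and Vec 4 held both, so that these genes do not give a sex for each library. Any difference in the sex of the cells cannot be told apart from the label in any of the comparisons.

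Members of the p53 set were called in both directions in CCND2mut marrow. The share that fell against Vec was near that of all genes. In CCND2mut against Vec, 14 of 31 tested members rose and 8 fell at an edgeR adjusted p of 0.05, where 24.9% of all genes rose and 26.9% fell. The median log2 fold change of the members was 0.43, against -0.031 over all 15660 genes tested. In CCND2wt against Vec, 5 members rose and 4 fell, where 9.71% of all genes rose and 9.05% fell, and the median over the members was 0.028, against -0.038 over all genes. In CCND2mut against CCND2wt, 12 rose and 9 fell, where 23.2% of all genes rose and 23.8% fell, with medians of -0.018 over the members and 0.016 over all genes. With the CCND2wt libraries summed into 1 sample all 9 calls of CCND2wt against Vec were lost, leaving 0 higher and 0 lower, and 3 higher and 4 lower were called in CCND2mut against CCND2wt. Leaving out single libraries gave 2 to 5 higher and 2 to 3 lower in CCND2wt against Vec, with 2 higher without Vec 4, CCND2wt 2 or CCND2wt 4, 3 higher without CCND2wt 3, and 2 lower without Vec 1 or any 1 of the CCND2wt libraries. In those fits 3.75% to 10.2% of all genes rose and 2.46% to 8.38% fell. Groups did not overlap for 22, 22 and 21 of the tested members in CCND2mut against Vec, CCND2wt against Vec and CCND2mut against CCND2wt, shares of 71%, 71% and 67.7% that stand beside 56.7%, 48.3% and 63.1% of all genes tested. No test of the set as a whole was made, and the comparisons share libraries. In bulk marrow a change in the share of a cell type and a change in RNA per cell cannot be told apart.

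**Figure D1:**
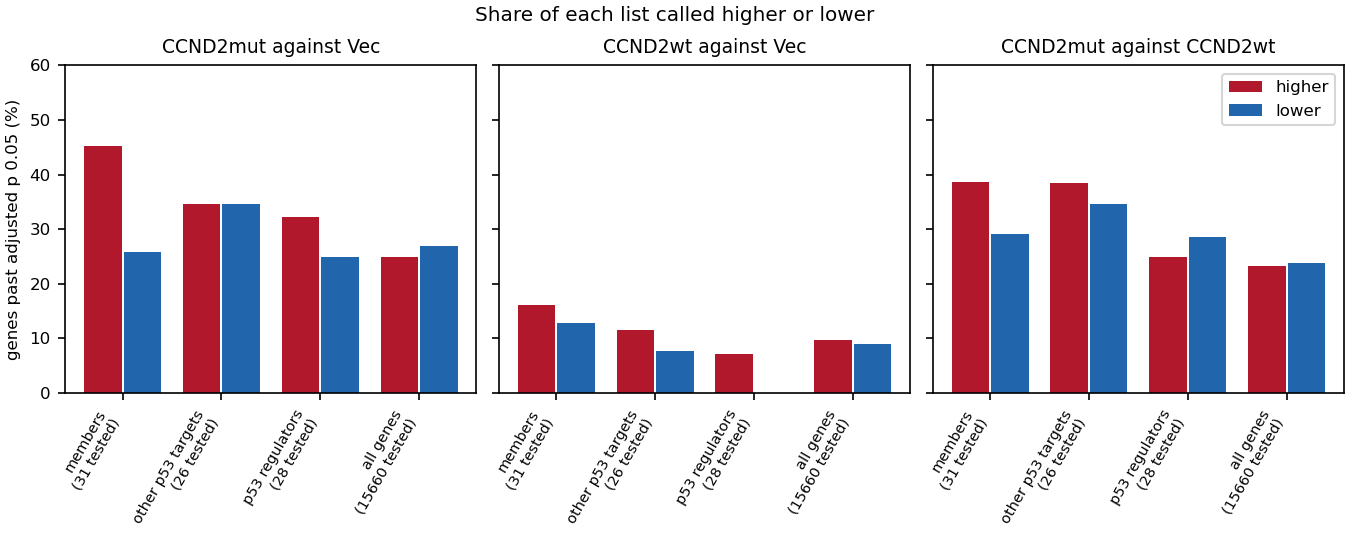
Share of tested genes past an edgeR adjusted p of 0.05 (vertical axis, %), higher in red and lower in blue, for the 31 tested members, 26 other p53 targets, 28 p53 regulators and all 15660 genes, in the 3 comparisons. The tallest bar is that of members higher in CCND2mut against Vec (14 of 31), and all shares are smallest in CCND2wt against Vec.

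Of Trp53 and its brakes, Trp53 itself was lower in CCND2mut marrow, while Mdm2 was higher there. Of these 4 members, 1 rose and 1 fell in CCND2mut against Vec (24.9% and 26.9% of all genes), 0 rose and 0 fell in CCND2wt against Vec (9.71% and 9.05%), and 2 rose and 1 fell in CCND2mut against CCND2wt (23.2% and 23.8%), or 0 and 0 with the CCND2wt libraries summed. Trp53 (chromosome 11, 69580359 to 69591873, plus strand, in mm10) stood at 123, 93 and 113 CPM in CCND2mut, 178, 165 and 183 CPM in CCND2wt, and 156, 188 and 178 CPM in Vec. All CCND2mut libraries lay below all others, while CCND2wt and Vec overlapped. Trp53 fell in CCND2mut against Vec (log2 fold change -0.66, SE 0.129, edgeR adjusted p = 0.00291), and fell by 0.68 on the log2 scale against CCND2wt (edgeR adjusted p = 0.00282; 0.0786 with the CCND2wt libraries summed), and its value in CCND2wt against Vec was 0.014 (edgeR adjusted p = 0.953). Mdm2 (chromosome 10, 117688875 to 117710758, minus strand) stood at 161, 198 and 181 CPM in CCND2mut, 107, 117 and 99.6 CPM in CCND2wt, and 120.2, 157 and 122 CPM in Vec. Every CCND2mut library exceeded every other one, with Vec 2 the nearest to them. Mdm2 rose in CCND2mut against Vec (log2 fold change 0.43, SE 0.139, edgeR adjusted p = 0.0292) and against CCND2wt (log2 fold change 0.74, SE 0.14, edgeR adjusted p = 0.00278). Its call against Vec was lost when Vec 1, Vec 4, CCND2mut 2 or CCND2mut 3 was left out (edgeR adjusted p = 0.0634 to 0.0977), and also in a fit of those groups alone. Its call against CCND2wt was lost when the CCND2wt libraries were summed.

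Mdm4, which masks the activation domain of p53, stood at 320.3, 334 and 339 CPM in CCND2mut, 267, 262 and 266 CPM in CCND2wt, and 293, 362 and 322 CPM in Vec. CCND2mut and Vec overlapped. It rose in CCND2mut against CCND2wt (log2 fold change 0.32, SE 0.105, edgeR adjusted p = 0.0331). This call was lost when CCND2wt 2, CCND2wt 3, CCND2wt 4, CCND2mut 2 or CCND2mut 3 was left out (edgeR adjusted p = 0.0796 to 0.108), without the filter (edgeR adjusted p = 0.135) and with the CCND2wt libraries summed (edgeR adjusted p = 0.371). It stood at 0.024 in CCND2mut against Vec and at -0.30 in CCND2wt against Vec (edgeR adjusted p = 0.859 and 0.0794). Ppm1d, the phosphatase WIP1 that dephosphorylates p53 and the kinases upstream of it, overlapped between all groups, at 30.3 ± 5.51 CPM in CCND2mut, 33.3 ± 1.49 in CCND2wt and 29.1 ± 7.90 in Vec (mean ± SD, n = 3 each).

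**Figure D2:**
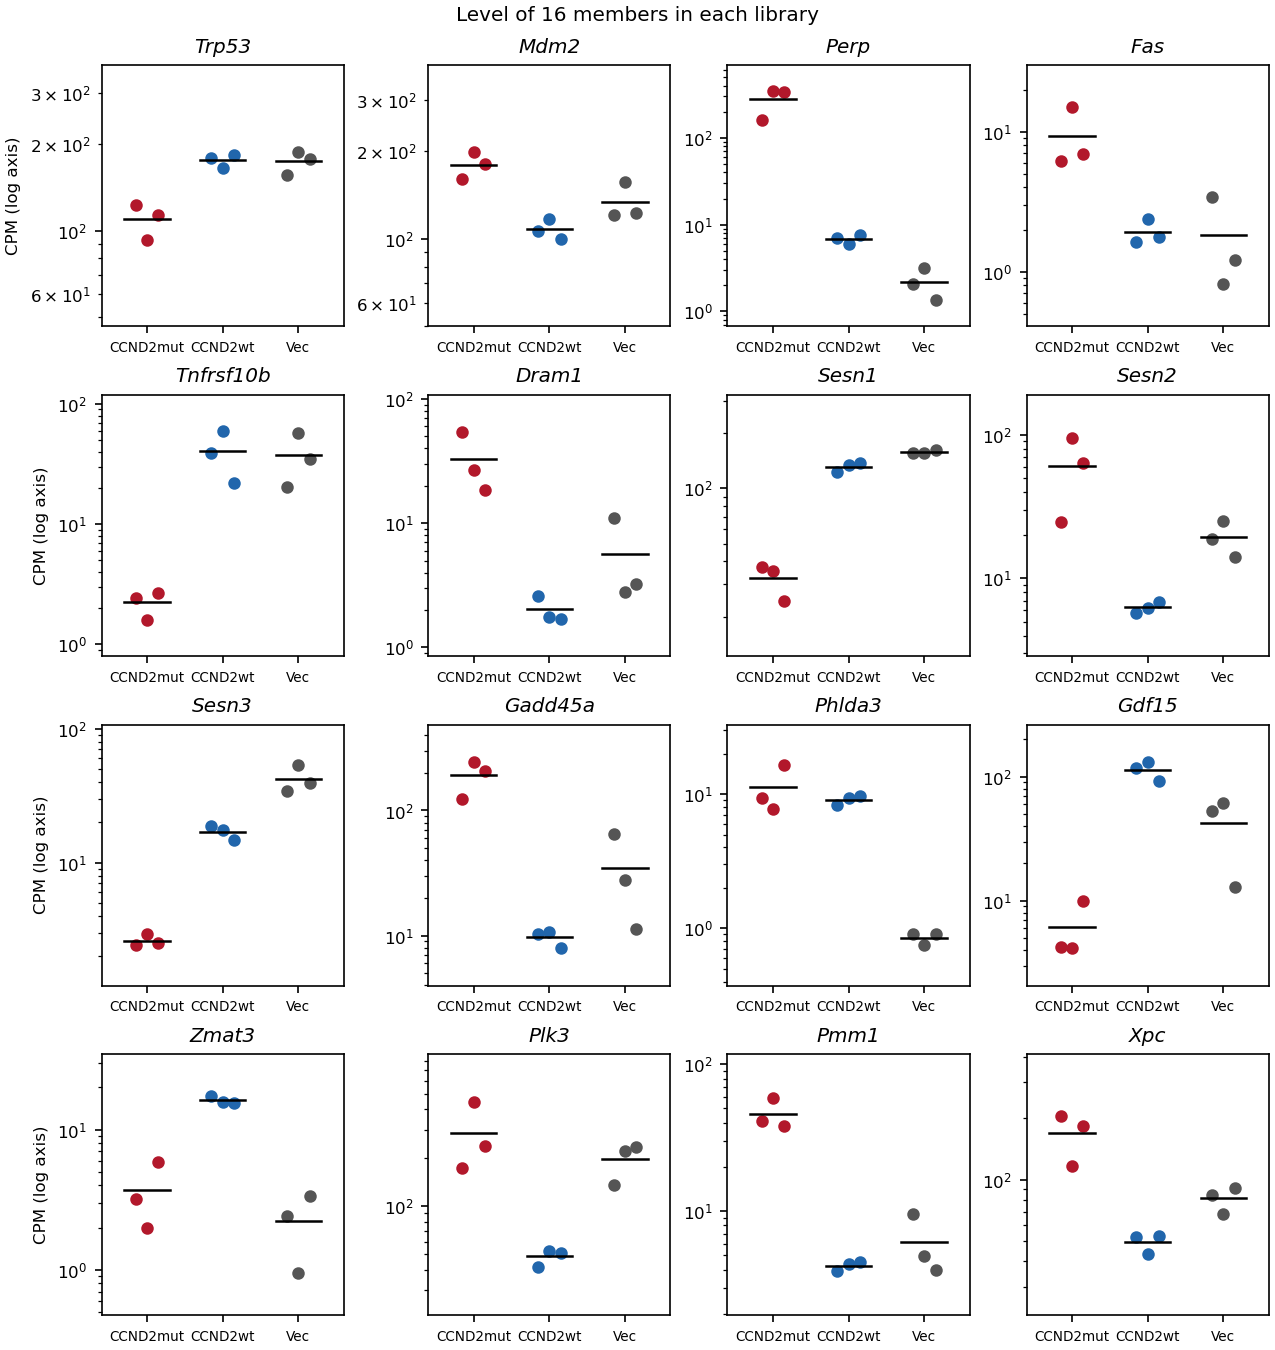
CPM (vertical log axes, each with its own range) of 16 members in each library, with CCND2mut, CCND2wt and Vec from left to right; points are libraries and lines are group means. Perp, Sesn1, Sesn3 and Tnfrsf10b show CCND2mut libraries far from all others, and Zmat3 and Gdf15 are highest in CCND2wt.

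The sestrins, stress proteins that restrain the growth kinase mTORC1, split within their own family in CCND2mut marrow: Sesn1 and Sesn3 fell and Sesn2 rose. Sesn1 stood at 37.2, 35.5 and 24.5 CPM in CCND2mut, 122, 134 and 137 CPM in CCND2wt, and 155, 155 and 161 CPM in Vec. The CCND2mut libraries lay far below both other groups, which did not overlap each other either. Sesn1 fell in CCND2mut against Vec (log2 fold change -2.28, SE 0.159, edgeR adjusted p = 2.92e-05) and against CCND2wt (log2 fold change -2.02, SE 0.158, edgeR adjusted p = 3.99e-05), while in CCND2wt against Vec the value was -0.26 (edgeR adjusted p = 0.249). Sesn3 stood at 2.43, 2.94 and 2.52 CPM in CCND2mut, 18.7, 17.6 and 14.7 CPM in CCND2wt, and 34.1, 53.6 and 39.6 CPM in Vec. None of the groups overlapped. Sesn3 fell in CCND2mut against Vec (log2 fold change -4.01, SE 0.223, edgeR adjusted p = 1.26e-05) and against CCND2wt (log2 fold change -2.69, SE 0.213, edgeR adjusted p = 4.19e-05), and fell in CCND2wt against Vec as well (log2 fold change -1.32, SE 0.196, edgeR adjusted p = 0.00384; 0.216 with the CCND2wt libraries summed).

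Sesn2, a leucine-binding sestrin, ran the other way. It stood at 24.6, 94.7 and 63.4 CPM in CCND2mut, 5.77, 6.23 and 6.88 CPM in CCND2wt, and 18.8, 24.99 and 13.98 CPM in Vec. CCND2wt was lowest in every library, and CCND2mut 1 lay just below Vec 2 while CCND2mut 2 and 3 lay well above. Sesn2 rose in CCND2mut against Vec (log2 fold change 1.66, SE 0.435, edgeR adjusted p = 0.0127) and against CCND2wt (log2 fold change 3.27, SE 0.467, edgeR adjusted p = 0.000731), the call against CCND2wt being lost with the CCND2wt libraries summed. It fell in CCND2wt against Vec (log2 fold change -1.61, SE 0.444, edgeR adjusted p = 0.039). This call was lost when Vec 1, Vec 2, Vec 4, CCND2wt 2, CCND2wt 3 or CCND2wt 4 was left out (edgeR adjusted p = 0.0521 to 0.132). Per gene length, Sesn1 averaged 21.5 ± 3.14 TPM in CCND2mut, 115 ± 7.19 TPM in CCND2wt and 122 ± 9.88 TPM in Vec. The TPM level of Sesn2 was 46.5 ± 24.9 in CCND2mut, 6.31 ± 0.634 in CCND2wt and 17.02 ± 4.71 in Vec, so that Sesn2 had the highest mean TPM of the 3 in CCND2mut and Sesn1 in the other groups.

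Among genes that slow or arrest the cell cycle, Ccng1 and Gadd45a rose in CCND2mut marrow. Btg2 and Plk2 fell there against Vec but were not called against CCND2wt. With the sestrins and the metabolic members, 14 genes of growth and redox control were tested, and 5 rose and 5 fell in CCND2mut against Vec (24.9% and 26.9% of all genes), 2 rose and 3 fell in CCND2wt against Vec (9.71% and 9.05%), and 5 rose and 4 fell in CCND2mut against CCND2wt (23.2% and 23.8%). With the CCND2wt libraries summed the last counts were 1 and 3. Ccng1 (cyclin G1), which brings a phosphatase to MDM2, stood at 76.01, 107 and 134 CPM in CCND2mut, 62.6, 63.8 and 57.7 CPM in CCND2wt, and 45.6, 28.2 and 42.9 CPM in Vec. The groups did not overlap, with CCND2mut highest and Vec lowest. It rose in CCND2mut against Vec (log2 fold change 1.44, SE 0.236, edgeR adjusted p = 0.00124) and against CCND2wt (log2 fold change 0.79, SE 0.232, edgeR adjusted p = 0.022), while in CCND2wt against Vec the value was 0.66 (edgeR adjusted p = 0.0805). The call against CCND2wt was lost when CCND2wt 2, CCND2wt 3, CCND2wt 4, CCND2mut 2 or CCND2mut 3 was left out (edgeR adjusted p = 0.0586 to 0.0778), and with the CCND2wt libraries summed.

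Gadd45a, a stress protein that binds PCNA and slows the G2/M transition, stood at 123, 243 and 206 CPM in CCND2mut, 10.3, 10.7 and 7.98 CPM in CCND2wt, and 65.3, 27.98 and 11.3 CPM in Vec. The CCND2mut libraries were above all others, and Vec was widely spread, with Vec 1 highest. Gadd45a rose in CCND2mut against Vec (log2 fold change 2.45, SE 0.564, edgeR adjusted p = 0.00702), or by 3.29 without Vec 1, and in CCND2mut against CCND2wt (log2 fold change 4.30, SE 0.616, edgeR adjusted p = 0.000746), a call lost with the CCND2wt libraries summed. Its value in CCND2wt against Vec was -1.85 (edgeR adjusted p = 0.0531). That value rested on single libraries, at -0.99 without Vec 1 (edgeR adjusted p = 0.137) and -2.27 without Vec 4 (edgeR adjusted p = 0.0171). DESeq2 called it (adjusted p = 0.00479).

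Btg2, an antiproliferative cofactor of mRNA deadenylation, stood at 226, 522 and 339.7 CPM in CCND2mut, 368, 428 and 403 CPM in CCND2wt, and 924, 573 and 722 CPM in Vec. Vec was the highest group, without overlap, and CCND2mut and CCND2wt overlapped. Btg2 fell in CCND2mut against Vec (log2 fold change -1.03, SE 0.293, edgeR adjusted p = 0.0179). The call was lost when Vec 1 or CCND2mut 3 was left out (edgeR adjusted p = 0.0583 to 0.059), and its value in CCND2wt against Vec was -0.89 (edgeR adjusted p = 0.066). DESeq2 (adjusted p = 0.0341) and a fit of those groups alone (edgeR adjusted p = 0.0123) called Btg2 lower in CCND2wt against Vec. In CCND2mut against CCND2wt Btg2 stood at -0.14 (edgeR adjusted p = 0.719). Plk2 and Plk3 encode polo-like kinases of the stress response. Plk2 stood at 74.1, 67.3 and 26.1 CPM in CCND2mut, 56.03, 74.9 and 38.7 CPM in CCND2wt, and 96.3, 149 and 113 CPM in Vec. Vec lay above the others, without overlap. Plk2 fell in CCND2mut against Vec (log2 fold change -1.10, SE 0.395, edgeR adjusted p = 0.0455). That call was lost when Vec 2, Vec 4, CCND2mut 2 or CCND2mut 3 was left out (edgeR adjusted p = 0.0563 to 0.128). It had a value of -1.08 in CCND2wt against Vec (edgeR adjusted p = 0.0902). DESeq2 (adjusted p = 0.0441) and a fit of those groups alone (edgeR adjusted p = 0.0269) called Plk2 lower there. In CCND2mut against CCND2wt Plk2 stood at -0.018 (edgeR adjusted p = 0.973).

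Plk3 differed from Plk2 in that CCND2wt alone was low. It stood at 172, 443 and 236 CPM in CCND2mut, 41.8, 52.7 and 51.2 CPM in CCND2wt, and 135, 222 and 233 CPM in Vec. The CCND2mut and Vec libraries overlapped. Plk3 fell in CCND2wt against Vec (log2 fold change -2.02, SE 0.358, edgeR adjusted p = 0.00811) and rose in CCND2mut against CCND2wt (log2 fold change 2.54, SE 0.364, edgeR adjusted p = 0.000747), both calls being lost with the CCND2wt libraries summed.

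Of the members that act on growth signalling, secretion and metabolism, Phlda3 was higher in both cyclin D2 groups. Phlda3, whose protein keeps the kinase AKT from the membrane, stood at 9.35, 7.74 and 16.5 CPM in CCND2mut, 8.25, 9.35 and 9.69 CPM in CCND2wt, and 0.905, 0.747 and 0.898 CPM in Vec. Vec lay below both other groups, which overlapped each other. Phlda3 rose in CCND2mut against Vec (log2 fold change 3.71, SE 0.343, edgeR adjusted p = 8.64e-05) and in CCND2wt against Vec (log2 fold change 3.41, SE 0.339, edgeR adjusted p = 0.000906), the second call being lost with the CCND2wt libraries summed, and the difference between CCND2mut and CCND2wt was 0.30 (SE 0.295, edgeR adjusted p = 0.431).

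Zmat3 and Gdf15 were highest in CCND2wt. Zmat3, an RNA-binding zinc finger protein, stood at 3.22, 2.003 and 5.91 CPM in CCND2mut, 17.2, 15.8 and 15.5 CPM in CCND2wt, and 2.41, 0.951 and 3.33 CPM in Vec. CCND2wt lay above both other groups, which overlapped each other. It rose in CCND2wt against Vec (log2 fold change 2.85, SE 0.508, edgeR adjusted p = 0.00768) and fell in CCND2mut against CCND2wt (log2 fold change -2.12, SE 0.49, edgeR adjusted p = 0.0073). Both calls were lost with the CCND2wt libraries summed. Gdf15, a secreted stress cytokine of the TGF-beta family, stood at 4.25, 4.14 and 9.96 CPM in CCND2mut, 117, 132 and 92.5 CPM in CCND2wt, and 53.3, 61.7 and 12.8 CPM in Vec. The 3 groups did not overlap, and Vec 4 was low among Vec. Gdf15 fell in CCND2mut against Vec (log2 fold change -2.80, SE 0.591, edgeR adjusted p = 0.00468) and against CCND2wt (log2 fold change -4.22, SE 0.623, edgeR adjusted p = 0.000881), while in CCND2wt against Vec the value was 1.42 (edgeR adjusted p = 0.104).

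Pmm1, a phosphomannomutase, stood at 41.1, 58.6 and 38.1 CPM in CCND2mut, 3.92, 4.36 and 4.51 CPM in CCND2wt, and 9.60, 4.96 and 3.97 CPM in Vec. CCND2mut exceeded all other libraries, while CCND2wt and Vec overlapped. Pmm1 rose in CCND2mut against Vec (log2 fold change 2.89, SE 0.338, edgeR adjusted p = 0.000243) and against CCND2wt (log2 fold change 3.43, SE 0.347, edgeR adjusted p = 0.00013). The remaining members of this group were not called with all libraries. Trp53inp1, a p53 cofactor, averaged 57.8 ± 30.2 CPM in CCND2mut, 88.02 ± 40.6 in CCND2wt and 114 ± 21.2 in Vec. Without CCND2mut 2 it was called lower in CCND2mut against Vec (log2 fold change -1.50, edgeR adjusted p = 0.014) and against CCND2wt (log2 fold change -1.16, edgeR adjusted p = 0.0386). Fdxr, the mitochondrial ferredoxin reductase, averaged 28.2 ± 2.45, 28.6 ± 2.03 and 28.96 ± 2.19 CPM in CCND2mut, CCND2wt and Vec (mean ± SD, n = 3 each), and its fold changes lay between -0.040 and -0.017, with an SE of 0.124 in CCND2mut against Vec.

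Of the 8 cell death genes tested, 7 rose and 1 fell in CCND2mut against Vec (24.9% and 26.9% of all genes), 3 rose and 0 fell in CCND2wt against Vec (9.71% and 9.05%), and 4 rose and 1 fell in CCND2mut against CCND2wt (23.2% and 23.8%). The 7 in CCND2mut against Vec became 5 without Vec 1, Vec 2, Vec 4 or CCND2mut 3, and 6 without CCND2mut 1. They were also 5 with only the groups compared, with the replicate block and without the filter, and 6 with DESeq2. The 3 in CCND2wt against Vec became 0 without Vec 4, CCND2wt 2 or CCND2wt 4 and 1 without CCND2wt 3, and with the CCND2wt libraries summed CCND2mut against CCND2wt gave 1 and 1. Perp, a tetraspan membrane protein of desmosomes and of apoptosis, stood at 159, 344 and 339.7 CPM in CCND2mut, 6.98, 5.95 and 7.54 CPM in CCND2wt, and 2.05, 3.12 and 1.35 CPM in Vec. The groups did not overlap, and CCND2mut 1 was the lowest of its group. Perp (chromosome 10, 18845020 to 18857073, plus strand) rose in CCND2mut against Vec (log2 fold change 7.01, SE 0.434, edgeR adjusted p = 2.29e-05) and against CCND2wt (log2 fold change 5.36, SE 0.394, edgeR adjusted p = 3.57e-05), both of which held with each library left out. It rose in CCND2wt against Vec (log2 fold change 1.65, SE 0.376, edgeR adjusted p = 0.0195). The CCND2wt call was lost when Vec 4, CCND2wt 2, CCND2wt 3 or CCND2wt 4 was left out (edgeR adjusted p = 0.0515 to 0.0736), and with the CCND2wt libraries summed.

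The death receptors Fas and Tnfrsf10b moved in opposite directions. Fas, the receptor of FAS ligand, stood at 6.19, 14.95 and 6.97 CPM in CCND2mut, 1.64, 2.38 and 1.76 CPM in CCND2wt, and 3.44, 0.815 and 1.22 CPM in Vec. CCND2mut was above all other libraries, and CCND2wt and Vec overlapped, with Vec 1 high among Vec. It rose in CCND2mut against Vec (log2 fold change 2.35, SE 0.579, edgeR adjusted p = 0.00898), or by 3.20 without Vec 1, and against CCND2wt (log2 fold change 2.28, SE 0.575, edgeR adjusted p = 0.011), where the call was lost with the CCND2wt libraries summed. Tnfrsf10b, the TRAIL receptor of the mouse, stood at 2.43, 1.60 and 2.66 CPM in CCND2mut, 39.4, 59.4 and 21.8 CPM in CCND2wt, and 20.5, 56.8 and 34.5 CPM in Vec. CCND2mut lay below all other libraries, and CCND2wt and Vec overlapped. Tnfrsf10b fell in CCND2mut against Vec (log2 fold change -4.06, SE 0.512, edgeR adjusted p = 0.000391) and against CCND2wt (log2 fold change -4.17, SE 0.513, edgeR adjusted p = 0.000363).

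Downstream of the receptors, Apaf1, the scaffold on which caspase-9 is activated, stood at 153, 179.7 and 125 CPM in CCND2mut, 100.2, 104 and 104 CPM in CCND2wt, and 96.02, 98.5 and 99.05 CPM in Vec. The groups did not overlap, although CCND2wt and Vec lay close. Apaf1 rose in CCND2mut against Vec (log2 fold change 0.64, SE 0.131, edgeR adjusted p = 0.00372) and against CCND2wt (log2 fold change 0.57, SE 0.13, edgeR adjusted p = 0.00684), and the second call was lost with the CCND2wt libraries summed. Pidd1, the scaffold on which caspase-2 is activated, stood at 45.3, 31.04 and 41.1 CPM in CCND2mut, 44.8, 36.6 and 45.9 CPM in CCND2wt, and 28.97, 22.9 and 23.4 CPM in Vec. It was lowest in Vec, and CCND2mut and CCND2wt overlapped. Pidd1 rose in CCND2mut against Vec (log2 fold change 0.64, SE 0.176, edgeR adjusted p = 0.0147) and in CCND2wt against Vec (log2 fold change 0.76, SE 0.176, edgeR adjusted p = 0.0202). The first call was lost when Vec 4 was left out (edgeR adjusted p = 0.0503) and the second when Vec 4, CCND2wt 2 or CCND2wt 4 was left out (edgeR adjusted p = 0.0629 to 0.0858) or the CCND2wt libraries were summed (edgeR adjusted p = 0.302).

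Dram1, a lysosomal membrane protein of autophagy, stood at 53.9, 26.7 and 18.5 CPM in CCND2mut, 2.59, 1.76 and 1.71 CPM in CCND2wt, and 10.9, 2.78 and 3.21 CPM in Vec. CCND2mut was above all other libraries, and the highest library of CCND2mut and of Vec was number 1 in each. The summed level of 7 mature neutrophil markers was 4968, 1160 and 1329 CPM in CCND2mut 1, 2 and 3, 132.8, 71.3 and 99.1 CPM in CCND2wt 2, 3 and 4, and 7637, 352 and 416 CPM in Vec 1, 2 and 4. The part of these cells in the Dram1 level was not tested. Dram1 rose in CCND2mut against Vec (log2 fold change 2.55, SE 0.603, edgeR adjusted p = 0.00799), or by 3.45 without Vec 1, and against CCND2wt (log2 fold change 4.03, SE 0.651, edgeR adjusted p = 0.00137), a call lost with the CCND2wt libraries summed.

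Smaller differences were seen in Ei24 and Aen. Ei24, a protein of the endoplasmic reticulum needed for autophagy, stood at 65.6, 49.7 and 61.3 CPM in CCND2mut, 64.2, 63.8 and 70.6 CPM in CCND2wt, and 48.3, 44.96 and 47.2 CPM in Vec. CCND2mut and CCND2wt lay above Vec and overlapped each other. Ei24 rose in CCND2mut against Vec (log2 fold change 0.33, SE 0.121, edgeR adjusted p = 0.0471) and in CCND2wt against Vec (log2 fold change 0.50, SE 0.121, edgeR adjusted p = 0.0241). The first call was lost when Vec 1, Vec 2, Vec 4, CCND2mut 1 or CCND2mut 3 was left out (edgeR adjusted p = 0.0597 to 0.13), and the second when Vec 4, CCND2wt 2, CCND2wt 3 or CCND2wt 4 was left out (edgeR adjusted p = 0.0597 to 0.1) or the CCND2wt libraries were summed (edgeR adjusted p = 0.362).

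Aen, a nuclease of apoptosis, stood at 30.4, 32.98 and 48.4 CPM in CCND2mut, 31.8, 32.2 and 32.5 CPM in CCND2wt, and 25.5, 23.4 and 29.1 CPM in Vec. Vec was lowest, without overlap. Aen rose in CCND2mut against Vec (log2 fold change 0.52, SE 0.183, edgeR adjusted p = 0.0412), with the call lost when Vec 1, Vec 2 or CCND2mut 3 was left out (edgeR adjusted p = 0.0873 to 0.123). Eda2r, the X-linked receptor of ectodysplasin A2, did not pass the filter, with 3 counts over the CCND2mut libraries, 30 over CCND2wt and 1 over Vec. The main fit thus gave no fold for it. The fits without the filter and with DESeq2 tested 9 cell death genes, Eda2r included. Both called 4 higher in CCND2wt against Vec (3 in the main fit) and 2 lower in CCND2mut against CCND2wt (1 in the main fit). The added call was that of Eda2r, on few counts.

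**Figure D3:**
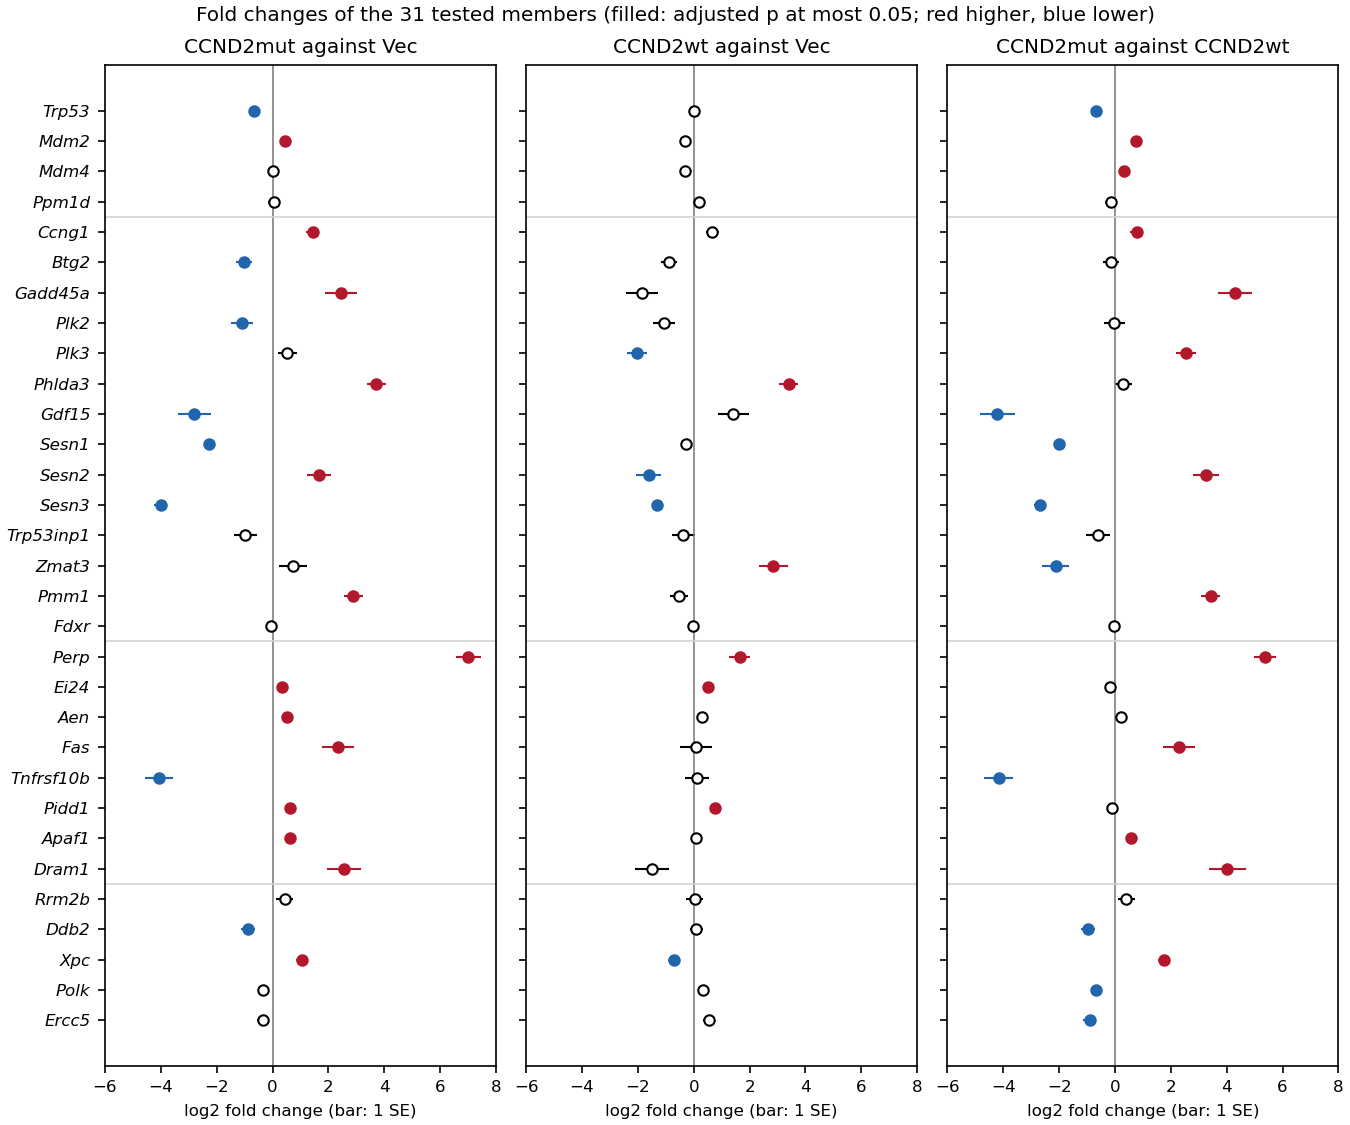
Log2 fold changes (horizontal axis, bars of 1 SE) of the 31 tested members in CCND2mut against Vec, CCND2wt against Vec and CCND2mut against CCND2wt; grey lines part p53 and its brakes, growth and stress genes, cell death genes and DNA repair genes, from top to bottom. Filled points passed an edgeR adjusted p of 0.05. Perp is farthest right in CCND2mut against Vec (7.01), and Tnfrsf10b and Sesn3 are farthest left (-4.06 and -4.01).

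Of the 5 DNA repair members tested, 1 rose and 1 fell in CCND2mut against Vec (24.9% and 26.9% of all genes), 0 rose and 1 fell in CCND2wt against Vec (9.71% and 9.05%), and 1 rose and 3 fell in CCND2mut against CCND2wt (23.2% and 23.8%), or 1 and 0 with the CCND2wt libraries summed. In nucleotide excision repair, Xpc and Ddb2 recognise the lesion and Ercc5 (XPG) cuts the strand. Xpc stood at 206, 117 and 184 CPM in CCND2mut, 52.4, 43.6 and 53.1 CPM in CCND2wt, and 84.8, 68.1 and 91.7 CPM in Vec. The 3 groups did not overlap, with CCND2mut highest and CCND2wt lowest. Xpc rose in CCND2mut against Vec (log2 fold change 1.05, SE 0.212, edgeR adjusted p = 0.00352) and against CCND2wt (log2 fold change 1.77, SE 0.216, edgeR adjusted p = 0.000315). It fell in CCND2wt against Vec (log2 fold change -0.71, SE 0.212, edgeR adjusted p = 0.048). That last call was lost when Vec 1, Vec 4, CCND2wt 2, CCND2wt 3 or CCND2wt 4 was left out (edgeR adjusted p = 0.0895 to 0.155) and with the CCND2wt libraries summed.

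Ddb2 stood at 10.02, 7.08 and 5.11 CPM in CCND2mut, 13.8, 14.8 and 14.9 CPM in CCND2wt, and 13.5, 14.7 and 12.8 CPM in Vec. CCND2mut lay below all other libraries. It fell in CCND2mut against Vec (log2 fold change -0.88, SE 0.242, edgeR adjusted p = 0.0148) and against CCND2wt (log2 fold change -0.97, SE 0.242, edgeR adjusted p = 0.0105). The first call was lost in a fit of those groups alone (edgeR adjusted p = 0.0537) and the second with the CCND2wt libraries summed. Ercc5 stood at 7.77, 13.95 and 12.6 CPM in CCND2mut, 19.05, 23.5 and 21.7 CPM in CCND2wt, and 13.4, 15.01 and 15.3 CPM in Vec. CCND2wt was highest, without overlap. Ercc5 fell in CCND2mut against CCND2wt (log2 fold change -0.91, SE 0.224, edgeR adjusted p = 0.01), again lost with the CCND2wt libraries summed, and had values of -0.35 in CCND2mut against Vec and 0.55 in CCND2wt against Vec (edgeR adjusted p = 0.215 and 0.113).

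Polk, a polymerase that copies past damaged bases, stood at 18.6, 22.3 and 27.4 CPM in CCND2mut, 35.6, 35.5 and 37.1 CPM in CCND2wt, and 30.1, 27.2 and 29.4 CPM in Vec. Again CCND2wt was highest, without overlap. Polk fell in CCND2mut against CCND2wt (log2 fold change -0.66, SE 0.151, edgeR adjusted p = 0.00686), a call lost with the CCND2wt libraries summed. Its value in CCND2mut against Vec was -0.34 (edgeR adjusted p = 0.0849), or -0.49 without CCND2mut 3 (edgeR adjusted p = 0.0217). Rrm2b, the p53-inducible subunit of ribonucleotide reductase, overlapped between all groups, at 22.2 ± 6.05 CPM in CCND2mut, 16.7 ± 1.69 in CCND2wt and 16.4 ± 6.83 in Vec (mean ± SD, n = 3 each), and was not called with all libraries. Without Vec 1 it was called higher in CCND2mut against Vec (log2 fold change 0.82, edgeR adjusted p = 0.0243), against 0.43 with Vec 1. In the deposited annotation 11 members overlap another gene, and in 2 of them that gene held over 10% as many counts as the member. These are Rrm2b (2730 counts over all libraries), which overlaps the pseudogene Gm3362 (7888 counts) on its own strand, and Ddb2 (1780 counts), which overlaps Acp2 (2517 counts) on the other strand. Reads in the shared bases of Rrm2b and Gm3362 cannot be told apart by strand, and for Ddb2 and Acp2 no source used here gives the strand setting of the counting, so that the values of both members are uncertain.

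Per gene length, Perp was the most abundant member in CCND2mut, and Btg2 in CCND2wt and Vec. Btg2 had 349.8 ± 126 TPM in CCND2mut, 507 ± 31.4 TPM in CCND2wt and 827 ± 166 TPM in Vec, and Perp 387 ± 155 TPM in CCND2mut, 12.2 ± 1.71 TPM in CCND2wt and 3.42 ± 1.39 TPM in Vec (mean ± SD, n = 3 each). The spreads of Btg2 and Perp within CCND2mut overlap, so that their order there is not settled. The median TPM over the 32 members was 26.2 in CCND2mut, 28.5 in CCND2wt and 24.6 in Vec, and 3, 1 and 2 members averaged under 1 TPM in those groups. Trp53 had 72.96 ± 14.5 TPM in CCND2mut, 151 ± 11.2 TPM in CCND2wt and 133 ± 18.7 TPM in Vec. By mean CPM, 15 members were highest in CCND2mut, 11 in CCND2wt and 6 in Vec. In turn 12, 8 and 12 were lowest in those groups. These counts include Eda2r, which was not tested, and members with near-equal means. The ratio of highest to lowest group mean was 1.03 for Fdxr and 1.14 for Ppm1d. The like counts over all genes were not taken, so that these do not set the members apart.

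**Figure D4:**
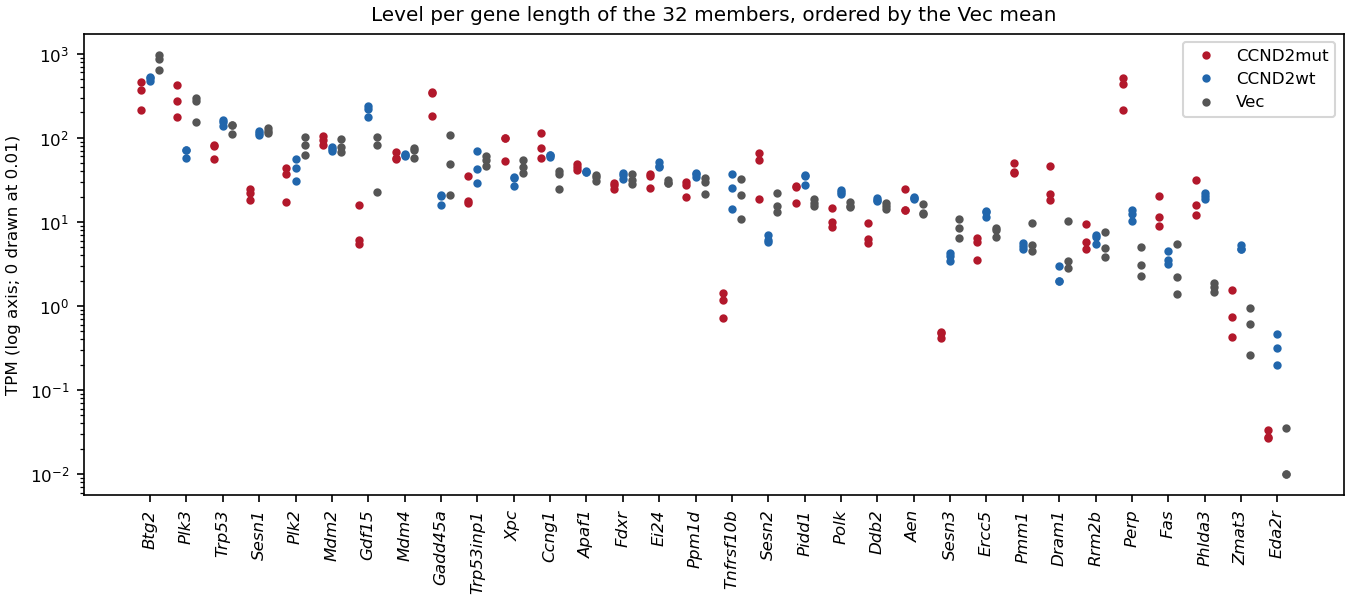
TPM (vertical log axis) of the 32 members, ordered by their mean in Vec; each point is 1 library, with CCND2mut, CCND2wt and Vec from left to right for each gene and values of 0 drawn at 0.01. Perp and Gadd45a stand higher in CCND2mut than their neighbours in this order, and Tnfrsf10b and Sesn3 lower.

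Other genes of the pathway were taken from lists drawn up by function. Of 30 further p53 targets 26 were tested, and 9 rose and 9 fell in CCND2mut against Vec (24.9% and 26.9% of all genes), 3 rose and 2 fell in CCND2wt against Vec (9.71% and 9.05%), and 10 rose and 9 fell in CCND2mut against CCND2wt (23.2% and 23.8%). With the CCND2wt libraries summed, 0 and 0 were called in CCND2wt against Vec, Rps27l and Siva1 among the lost calls, and 4 and 4 in CCND2mut against CCND2wt. In this list Rps27l, a ribosomal protein relative, rose in CCND2mut against Vec (log2 fold change 1.22, SE 0.0876, edgeR adjusted p = 3.27e-05) and in CCND2wt against Vec (log2 fold change 0.48, SE 0.0867, edgeR adjusted p = 0.00802). Siva1, an apoptosis adaptor, rose by 1.61 in CCND2mut and by 0.95 in CCND2wt against Vec (edgeR adjusted p = 0.000145 and 0.00712). Trim32, a ubiquitin ligase, fell to 0.574 ± 0.198 CPM in CCND2mut, against 10.2 ± 3.67 CPM in Vec (log2 fold change -4.13, SE 0.38, edgeR adjusted p = 8.5e-05). The arrest gene Cdkn1a (p21) rose in CCND2mut against CCND2wt (log2 fold change 1.97, SE 0.533, edgeR adjusted p = 0.0159) and stood at 1.36 in CCND2mut against Vec (edgeR adjusted p = 0.057) and at -0.61 in CCND2wt against Vec (edgeR adjusted p = 0.44). The call against CCND2wt was lost without CCND2wt 2 or CCND2wt 4 and with the CCND2wt libraries summed (edgeR adjusted p = 0.0622, 0.0643 and 0.196). Without Vec 1 Cdkn1a was called higher in CCND2mut against Vec (log2 fold change 0.92, edgeR adjusted p = 0.0266) and lower in CCND2wt against Vec (log2 fold change -1.02, edgeR adjusted p = 0.0366), and without Vec 2 higher in CCND2mut against Vec (log2 fold change 1.74, edgeR adjusted p = 0.0478). Of the pro-apoptotic BCL2 relatives, Bax and Pmaip1 (NOXA) rose by 1.37 and 4.85 in CCND2mut against Vec (edgeR adjusted p = 9.6e-05 and 9.9e-05), while Bbc3 (PUMA) stood at 0.19 there (edgeR adjusted p = 0.746), or at 0.80 without Vec 2 (edgeR adjusted p = 0.123).

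Of 30 regulators of p53, 28 were tested, and 9 rose and 7 fell in CCND2mut against Vec (24.9% and 26.9% of all genes), 2 rose and 0 fell in CCND2wt against Vec (9.71% and 9.05%), and 7 rose and 8 fell in CCND2mut against CCND2wt (23.2% and 23.8%). With the CCND2wt libraries summed, 0 and 0 were called in CCND2wt against Vec and 3 and 4 in CCND2mut against CCND2wt. The 2 that rose in CCND2wt against Vec were Chek1, a checkpoint kinase (log2 fold change 1.63, SE 0.17, edgeR adjusted p = 0.00106), and Cdkn2a, which encodes the MDM2 inhibitor ARF besides p16INK4A. Cdkn2a stood at 8.92, 14.7 and 36.7 CPM in CCND2mut, 17.9, 19.8 and 21.7 CPM in CCND2wt, and 0.181, 0.0679 and 0 CPM in Vec, and it rose in CCND2mut against Vec and in CCND2wt against Vec (edgeR adjusted p = 0.000167 and 0.00117). With the CCND2wt libraries summed, Chek1 and Cdkn2a had edgeR adjusted p = 0.0926 and 0.0705 in CCND2wt against Vec. Counts per gene do not part the ARF and p16INK4A transcripts. Among binding partners of p53, Trp53bp1 (53BP1, of double-strand break repair) fell by 1.62 in CCND2mut against Vec, and Trp53bp2 and Ppp1r13b (ASPP2 and ASPP1, which steer p53 to death genes) fell by 3.42 and 2.22 (edgeR adjusted p = 6.5e-05, 0.000162 and 6.33e-06). Hipk2, a kinase that phosphorylates p53, rose to 212 ± 83.9 CPM in CCND2mut, against 24.2 ± 5.58 CPM in Vec (log2 fold change 3.13, SE 0.329, edgeR adjusted p = 0.000169). Trp63 and Trp73, the relatives of p53, were not tested, and their group means were at most 0.0842 CPM.

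Markers of cell types and of cell division differed between the groups. Summed levels of 5 promyelocyte markers were 4999 to 10470 CPM in CCND2mut, 2503 to 2687 in CCND2wt and 1360 to 1893 in Vec. All 5 rose in CCND2mut against Vec, where 24.9% of all genes rose. In CCND2wt against Vec 1 rose and 1 fell (9.71% and 9.05% of all genes), and the median log2 fold change was -1.86, although the sum was higher. Those of 7 stem and progenitor markers were 496 to 1314 CPM in CCND2mut, 2359 to 2417 in CCND2wt and 1657 to 2279 in Vec. Of these 7, 0 rose and 5 fell in CCND2mut against Vec (24.9% and 26.9% of all genes). In CCND2wt against Vec 0 rose and 2 fell (9.71% and 9.05%). The median log2 fold change there was -0.47, although the sum was higher. Summed levels of 6 mast cell and basophil markers were 1227 to 9281 CPM in CCND2mut, 10460 to 10860 in CCND2wt and 7346 to 9641 in Vec. The sums of CCND2mut and Vec overlapped. Of these 6, 2 rose and 0 fell in CCND2mut against Vec (24.9% and 26.9% of all genes), with a median log2 fold change of 0.20. In CCND2wt against Vec 3 rose and 0 fell (9.71% and 9.05%), with a median of 2.48. Erythroid and B cell markers, 7 of each, summed to 32.05 to 267 and 4.52 to 14.7 CPM in CCND2mut, 1485 to 1591 and 21.1 to 24.1 CPM in CCND2wt, and 912 to 14630 and 44.7 to 288.5 CPM in Vec. Trbc2, a T cell receptor gene, was at 0 in all CCND2wt libraries, and no other marker was at 0 throughout a group. Of 16 cell division genes, 15 rose and 1 fell in CCND2mut against Vec (24.9% and 26.9% of all genes), 9 rose and 0 fell in CCND2wt against Vec (9.71% and 9.05%), and 1 rose and 0 fell in CCND2mut against CCND2wt (23.2% and 23.8%). The 15 in CCND2mut against Vec became 11 without the filter, 12 with only the groups compared and 12 to 15 without 1 library. The 1 that fell there became 0 with only the groups compared, with the replicate block and without CCND2mut 3. The 9 in CCND2wt against Vec became 15 without Vec 1, 4 without CCND2wt 2 or CCND2wt 4, 5 without CCND2wt 3 and 0 with the CCND2wt libraries summed. The 1 in CCND2mut against CCND2wt became 0 without CCND2mut 1, CCND2mut 3 or any 1 of the CCND2wt libraries, and 0 with these summed. The part of these differences in the values of the p53 set was not tested.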

How the data were processed

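Bulk RNA-seq of mouse bone marrow was deposited as 1 table of read counts per gene for 9 libraries, with gene lengths and positions. The counts are whole numbers that the authors deposited without normalization. CASAVA 1.8, fastp, HISAT2 2.0.5, featureCounts 1.5.0-p3, DESeq2 1.20.0 and the build mm10 are named, without roles, per the submitters' processing notes. Annotation release, strand setting and the handling of reads with several matches: not given in the sources used here.

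From the deposited counts, genes were filtered with filterByExpr (edgeR 4.0.16, R 4.3.3), leaving 15660 of 54532, scaled by TMM and tested with the quasi-likelihood F test in 1 model of all 9 libraries by group (6 residual degrees of freedom). P-values were adjusted by Benjamini-Hochberg over all genes tested, with a threshold of 0.05. CPM used the TMM-scaled library size, and TPM the deposited gene lengths. SE is the fold change divided by the square root of F. All fold changes are on the log2 scale. Samples were grouped by their titles. Alternatives were DESeq2 1.42.0 with its own size factors, RLE scaling, no filter, only the groups compared, the replicate number as a block, and each library left out in turn. Summing the CCND2wt libraries, leaving out Vec 1 and CCND2mut 1 together, and running all alternatives on the lists of other genes were chosen after seeing the data. The edgeR steps were tested on simulated data. Totals of 15043755 to 17593634 counts per library limit the precision of members with few counts. Same-numbered libraries of different groups correlated at -0.0561 to 0.15 in their deviations from group means.

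Members and lists were chosen with earlier results of these data known. Members called in any comparison at a mean of at least 1 CPM in some group are given in every library, and other members by means. From the lists of other genes, 5 genes and up to 4 more per list with the smallest adjusted p could be named. RefSeq held all 32 symbols. No sequence is shown.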

Additional observations from a re-analysis of the deposited data

How the results depend on the processing

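Counts of members called in CCND2mut against Vec (14 higher, 8 lower) stayed within 1.5 times in all alternatives run, with 11 to 13 higher and 7 to 8 lower over the fits without 1 library. In CCND2wt against Vec the share of all genes called also moved with the fit, from 9.71% higher and 9.05% lower in the main fit. With only the groups compared 14.8% rose and 14.3% fell, and with DESeq2 11.3% fell. Without 1 library 3.75% to 10.2% rose and 2.46% to 8.38% fell. For the members, CCND2wt against Vec (5 higher, 4 lower) depended on the fit. It gave 8 higher and 7 lower with only the groups compared, 7 lower with DESeq2, 2 to 5 higher and 2 to 3 lower without 1 library, and 0 and 0 with the CCND2wt libraries summed, where 26 genes rose and 13 fell among 17735 tested. With them summed, CCND2mut against CCND2wt gave 3 higher and 4 lower, against 12 and 9. Without 1 library it gave 10 to 12 higher and 9 to 10 lower, where 16.4% to 22.2% of all genes rose and 18.3% to 23.4% fell.

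With the replicate block, CCND2wt against Vec gave 3 higher and 2 lower, where 6.09% of all genes rose and 4.36% fell. The block ended 5 of 22 calls in CCND2mut against Vec (Mdm2, Ei24, Aen, Btg2 and Plk2), 4 of 9 in CCND2wt against Vec (Perp, Sesn2, Ei24 and Xpc) and 3 of 21 in CCND2mut against CCND2wt (Mdm4, Ccng1 and Fas). Of the same-numbered libraries 2 of 6 pairs had a correlation over 0.1, as did 2 of 21 other pairs. These are too few pairs to tell whether same-numbered libraries share more than a number. The block moved Tnfrsf10b to -0.27 and Fdxr to 0.038 in CCND2wt against Vec, Fdxr to 0.030 in CCND2mut against Vec, and Dram1 to 3.34 in CCND2mut against CCND2wt, against 4.03.

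Of 1116 fold changes of single members under an alternative, 970 kept direction and side of the threshold, 99 lost a call, 16 gained one and 31 changed sign, none of them a called value. Fdxr in CCND2wt against Vec was 0.030 without the filter, 0.00059 with DESeq2 and 0.014 with the CCND2wt libraries summed, and Mdm4 in CCND2mut against Vec was -0.0075 without Vec 1 and CCND2mut 1. Without 1 library, values in CCND2wt against Vec ranged over -0.031 to 0.095 for Trp53, -0.25 to 0.94 for Fas, -0.28 to 0.57 for Tnfrsf10b, -0.15 to 0.44 for Rrm2b and -0.063 to 0.047 for Fdxr. In CCND2mut against Vec they ranged over -0.047 to 0.10 for Mdm4, -0.14 to 0.25 for Ppm1d and -0.10 to 0.028 for Fdxr. In CCND2mut against CCND2wt they ranged over -0.086 to 0.48 for Phlda3, -0.020 to 0.33 for Aen, -0.53 to 0.11 for Btg2, -0.28 to 0.33 for Plk2 and -0.090 to 0.042 for Fdxr. Leaving out 1 library ended 6 of 22 calls in CCND2mut against Vec, 5 of 9 in CCND2wt against Vec and 2 of 21 in CCND2mut against CCND2wt. The cause of these changes was not tested. Depth limits Eda2r, which had too few counts to pass the filter and was tested only without the filter and with DESeq2.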
